A study of Mus musculus with 8 samples.

Results

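Transcripts of 8000 bases or more were taken from the transcript tables of 8 forebrain libraries by their listed length alone, whatever their level. They number 1297 of 63814 transcripts, or 2.03% of the tables. The libraries come from mouse embryos at E15.5, a stage at which cortical progenitors are still producing neurons. There are 4 libraries of the genotype Baf53a Het and 4 of Baf53a KO, both from whole forebrains that had been dissociated to single cells, with stranded libraries made from total RNA after ribosomal RNA depletion. The allele, any Cre driver and the number of embryos behind each library are not stated in the labels used here, so the p-values below measure only how these libraries vary, and that may be technical in part.

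Baf53a is an actin-related subunit of BAF complexes, which use ATP to move nucleosomes, and it belongs to the form of the complex found in neural progenitors. Neurons exchange it for the related subunit Baf53b as they leave the cell cycle. Very long mature RNAs in the developing brain include the messages of giant structural and adhesion proteins, messages with long 3′ ends, which neurons favour, and long noncoding RNAs. The tables carry UCSC transcript identifiers without gene names, and these could not be paired with names here. The transcripts are therefore described by length, and the 2 largest called rises and falls above a set mean level by identifier. For the same reason the level of the targeted gene and the markers of forebrain cells were not analysed here.

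Of the 1297 long transcripts, 1236 reached at least 1 estimated count in some library, and 26 were listed at exactly 0 in all 8. A default filter on low counts kept 1101 for testing and left out 196, of which 135 had a count of 1 or more somewhere. The median length was 9549 bases and the longest transcript had 101674. Most tested transcripts lay close to the lower bound: 654 had 8000 to under 10000 bases, 267 had 10000 to under 12000, 142 had 12000 to under 16000 and 38 had 16000 or more. The median long transcript held a mean of 632 estimated counts per library (quartiles 179.8 and 1666), against 116.8 for transcripts of 2000 to under 8000 bases. The 10 most abundant held 17.0% of all counts on long transcripts.

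The long transcripts together received 1426737, 1563169, 1641757 and 1274362 estimated counts in Het 1 to Het 4 and 1771185, 2385555, 1772021 and 1848299 in KO 1 to KO 4. Every KO value was above every Het value, but all KO libraries except KO 3 were also deeper in total than every Het library. As a share of all estimated counts the class took 10.5%, 11.9%, 11.9% and 11.9% in Het and 12.1%, 12.2%, 12.97% and 11.5% in KO. The means were 11.5 ± 0.669% and 12.2 ± 0.608% (SD, n = 4), a ratio of 1.06, and the groups overlapped because KO 4 lay below 3 Het libraries. The difference was about as large as 1 SD. Het 1 had the lowest share, and it also had the largest share on the single most abundant transcript of the tables, at 19.0% against 15.3% to 16.8% in the other Het libraries. In KO 1 to KO 4 that transcript took 13.1%, 13.3%, 13.8% and 16.9%, so KO 4, with the lowest class share in KO, had the most. Without the 10 most abundant transcripts of the tables the class took 14.7 ± 0.360% in Het and 15.1 ± 0.434% in KO (SD, n = 4). The groups overlapped there too, with 15.13% in Het 2 and 14.74% in KO 1. No p-value is given for a score over the class.

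More of the long transcripts were detected in KO. At least 1 estimated count was given to 1099, 1109, 1110 and 1103 of them in the Het libraries and to 1129, 1139, 1121 and 1127 in the KO libraries. After all libraries had been thinned to the total of the shallowest, the numbers were 1102, 1112, 1109 and 1110 in Het and 1132, 1134, 1122 and 1131 in KO. The groups did not overlap on either measure. The gap of 21.5 transcripts at equal totals was larger than the spread within either genotype (SD 4.35 in Het and 5.32 in KO, n = 4). The gap was small beside the number detected, at a ratio of 1.02. Detection of shorter transcripts was not counted in each library. Whether the gap is particular to long transcripts therefore cannot be said, and it was not tested.

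The level of the class relative to the other transcripts was measured next. For each tested transcript, log2 CPM in a library (counts scaled to the library's total after TMM adjustment) was set against that transcript's mean over the 8 libraries. The median of this deviation over all long transcripts was -0.07, 0.03, 0.01 and -0.06 in Het and 0.05, 0.10, 0.12 and 0.03 in KO. Each KO library exceeded each Het library, KO 4 only narrowly above Het 2, with a gap between the means of 0.10 on the log2 scale. The same median over transcripts of 2000 to under 8000 bases lay between 0.02 and 0.04 in the Het libraries and between 0.03 and 0.06 in the KO libraries.

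Since long transcripts hold more counts, they were also compared with transcripts of 2000 to under 8000 bases at the same mean estimated count, in 26 bins that held all 1101 long and 20627 shorter transcripts. The long transcripts deviated from the others in their bins by -0.11, 0.02, -0.02 and -0.09 on the log2 scale in Het 1 to Het 4 and by 0.08, 0.16, 0.18 and 0.08 in KO 1 to KO 4. The means were -0.05 ± 0.06 in Het and 0.12 ± 0.05 in KO (SD, n = 4), so that the class stood 0.17 higher in KO relative to equally counted transcripts, and the groups did not overlap. The gap was 0.10 when each long transcript was set against the 1 nearest shorter transcript in mean count, and 0.24 for transcripts of 10000 bases or more. It was 0.16 over transcripts whose estimates are whole in every library, where no reads are divided, but there the groups overlapped. These values describe the middle of the class rather than any single transcript, and the shift was uneven over the range of counts. The median fitted log2 fold change (KO over Het) of long transcripts was 0.05 at 4 to 16 mean counts, 0.40 at 16 to 64 and 0.18 at 64 to 256. It was 0.07 at 256 to 1024, 0.04 at 1024 to 4096 and -0.002 at 4096 to 16384. In the shorter transcripts it was 0.09, 0.01, -0.01, -0.002, -0.001 and -0.03 in the same order.

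**Figure D1:**
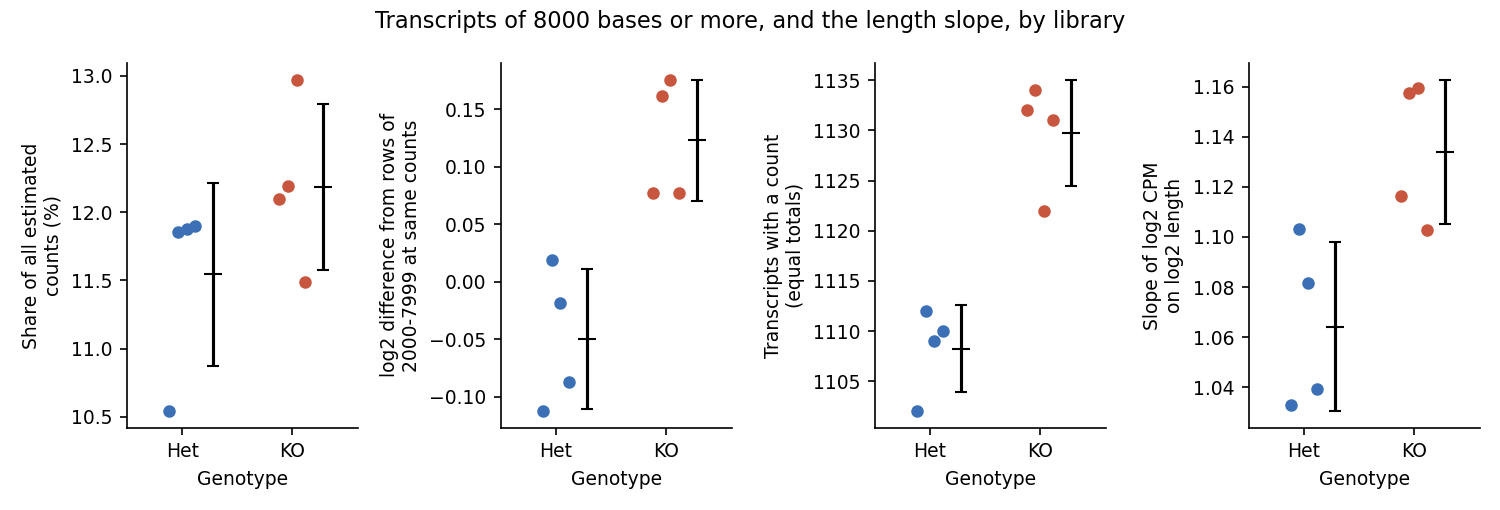
Values of the long transcripts in each library, with Het in blue and KO in red, 1 point per library, and the mean and SD of 4 libraries in black. From left to right the panels show their share of all estimated counts (%), their log2 difference from transcripts of 2000 to under 8000 bases at the same mean count, how many had a count at equal library totals, and the slope of log2 CPM on log2 length over tested transcripts of 2000 bases or more. The axes do not start at 0. The groups overlap in the first panel and do not in the second and the third, and in the fourth Het 2 and KO 4 are almost level.

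The median difference between genotypes was larger in the longer classes, though not in strict order. The median fitted log2 fold change (KO over Het) was -0.02 for transcripts of 1000 to under 2000 bases, -0.01 for 2000 to under 4000 and 0.03 for 4000 to under 8000. It was 0.06 for 8000 to under 10000 bases, 0.11 for 10000 to under 12000, 0.10 for 12000 to under 16000 and 0.20 for the 38 transcripts of 16000 or more. Of the tested long transcripts 60.4% had a fold change above 0, and of those of 16000 or more 71.1% did, against 49.997% of all tested transcripts. The median over all long transcripts was 0.08, and over all tested transcripts it was 0.00. As a share of all estimated counts, transcripts of 16000 bases or more took 1.01 ± 0.156% in Het and 0.989 ± 0.114% in KO (SD, n = 4). From 8000 to under 10000 bases the mean shares were 5.22% and 5.43%, and from 10000 to under 12000 they were 3.37% and 3.71%. From 12000 to under 16000 bases they were 1.94% and 2.06%.

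Within the class the libraries of a genotype differed among themselves. For transcripts of 8000 to under 10000 bases the genotypes touched, since Het 3 had a median deviation of 0.04 and KO 4 of 0.03. From 10000 to under 12000 bases the Het libraries stood at -0.07, 0.01, 0.00 and -0.09 and the KO libraries at 0.06, 0.12, 0.13 and 0.03, with no overlap. From 12000 to under 16000 bases Het 2 and KO 4 were both at 0.04 and lay only narrowly apart. Above 16000 bases KO 4, at 0.00, was below Het 2, at 0.03. KO 2 and KO 3 were the highest libraries in each of these 4 length classes, and Het 1 or Het 4 the lowest.

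**Figure D2:**
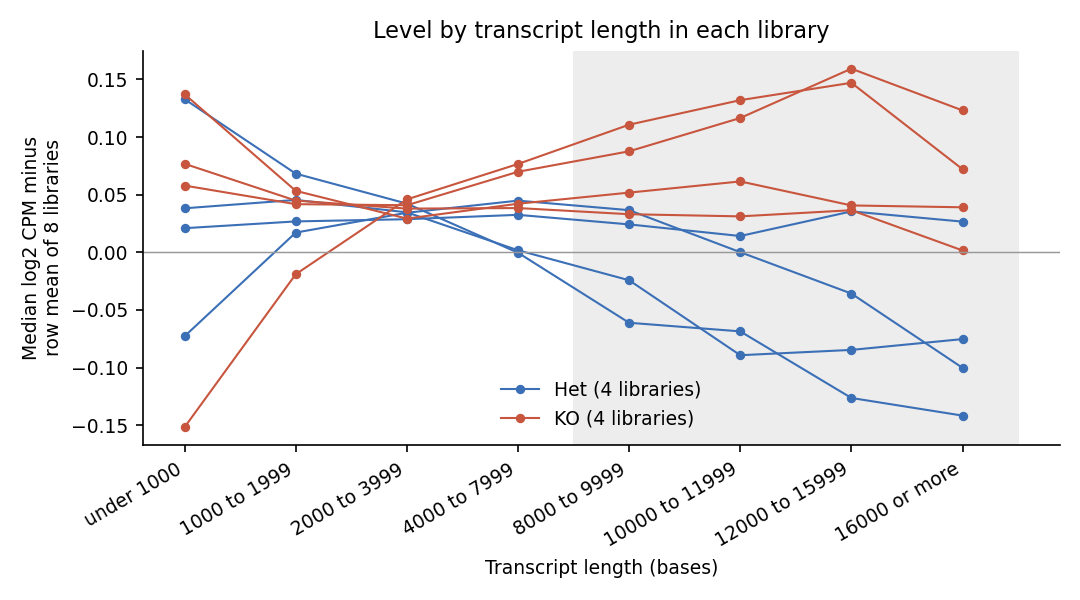
Median deviation of log2 CPM from the transcript's own mean over the 8 libraries (vertical axis), by length class in bases (horizontal axis), 1 line per library, with Het in blue and KO in red. The grey band marks the transcripts of 8000 bases or more. The lines of both genotypes meet at 2000 to under 4000 bases and part above it, with KO 2 and KO 3 highest and Het 1 or Het 4 lowest, while below 1000 bases the genotypes are mixed.

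The slope of log2 CPM on log2 length was fitted in each library over the 21728 tested transcripts of 2000 bases or more. It states how many log2 units of CPM are gained per doubling of length. The slopes were 1.03, 1.10, 1.08 and 1.04 in Het and 1.12, 1.158, 1.159 and 1.10 in KO, with means of 1.06 ± 0.034 and 1.13 ± 0.029 (SD, n = 4). The difference of 0.07 did not pass (two-sided exact permutation p = 0.0571 over 70 arrangements, n = 4 per genotype, for which the smallest p is 0.0286). A single neighbouring pair stood in the way of full separation, with 1.1031 in Het 2 and 1.1029 in KO 4. Over transcripts of 2000 to under 8000 bases alone, which hold none of the class, the difference was 0.06 (exact permutation p = 0.0571, n = 4). Within the long class alone it was 0.13, from 0.526 ± 0.113 to 0.656 ± 0.028 (SD, n = 4; exact permutation p = 0.0857). There the slope of Het 2 exceeded that of KO 1 and KO 4. The trend was thus not confined to transcripts of 8000 bases or more.

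Transcript by transcript, 50 long transcripts were higher and 17 lower in KO. The threshold was a Benjamini-Hochberg adjusted p of 0.05 over the 29370 transcripts in edgeR's quasi-likelihood fit. That is 6.09% of the 1101 tested, where 2.64% of all tested transcripts were called. Higher calls made up 4.54% against 1.65% of all transcripts, and lower calls 1.54% against 0.984%. In all 67 the genotypes were fully apart in log2 CPM, but the calls were made on the same counts, so this is no separate support. The rises were moderate, with a median log2 fold change of 0.77, and 10 exceeded 2-fold. The falls had a median of -0.45, ran from -0.99 to -0.23, and none exceeded 2-fold. Transcripts that fell were the more abundant ones: their median mean count was 2090, against 772 for those that rose. Their median length was 8975 bases, against 10212 for those that rose. The number of calls depended on single libraries. Dropping Het 1, Het 2, Het 3 or Het 4 gave 13, 54, 10 or 16 calls. Dropping KO 1, KO 2, KO 3 or KO 4 gave 14, 10, 24 or 8. In these fits between 8 and 44 were higher in KO. Not all were among the 67, since without Het 2 only 40 of the 54 were. The calls were from 0.716% to 4.82% of the long transcripts tested, while from 0.198% to 1.49% of all transcripts were called in the same fits. An edgeR fit with the replicate number as a block called 0 long transcripts. The share of all transcripts called in that fit is not given here. With DESeq2 the number was 218 (19.8%), of which 148 were higher, against 12.2% of all transcripts. With limma on log2(TPM + 1) it was 0, against 35 of all transcripts, and 104 (9.45%) had an unadjusted limma p under 0.05, against 8.4% of all. In TPM, which scales counts by length and total, transcripts under 1000 bases held from 55.5% to 73.5% of the total across the Het libraries and from 56.5% to 71.1% across the KO libraries, and the part of this in the count of 0 was not tested.

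Transcripts with more counts were also called more often. Those of 2000 to under 8000 bases, weighted to the mean counts of the long ones, were called higher in 2.76% and lower in 1.91% of cases, against 4.54% and 1.54% of the long transcripts. At an unadjusted edgeR p under 0.05, 191 long transcripts (17.3%) were higher and 85 (7.72%) lower. Among all tested transcripts these shares were 9.62% and 8.38%, or 18% in both directions together. Among transcripts of 2000 to under 8000 bases at the same counts they were 13.98% and 12.98%, so the sum was no larger among long transcripts (25.1% against 27.0%), while the balance of directions differed. The same pattern held for group ranges. In 136 long transcripts (12.4%) the lowest KO library exceeded the highest Het library and in 62 (5.63%) the order was the opposite, against 7.83% and 6.49% of all tested transcripts and 10.4% and 9.12% of the shorter ones at the same counts. No test was made of these differences in share, since transcripts that share reads are not independent.

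The balance of rises and falls varied with abundance. From 256 to 1024 mean counts, 25 of 351 long transcripts rose and 3 fell, or 7.12% and 0.855%, while 2.63% and 2.15% of the 4789 shorter transcripts there did so. From 1024 to 4096 counts, 16 rose and 8 fell of 319, shares of 5.02% and 2.51% against 4.37% and 2.98% of shorter ones. From 4096 to 16384 counts the balance was the opposite: 2 rose and 5 fell of 78, or 2.56% and 6.41%, against 2.19% and 1.46% of shorter ones. From 16 to 64 counts 2 of 124 rose (1.61%) and 0 fell, against 0.780% and 0.170% of shorter ones. Long transcripts of few counts were also the most variable. From 64 to 256 counts their median biological coefficient of variation, the relative spread between libraries beyond counting noise, was 0.539, against 0.260 for shorter transcripts, whereas from 1024 to 4096 counts it was 0.121 against 0.114.

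**Figure D3:**
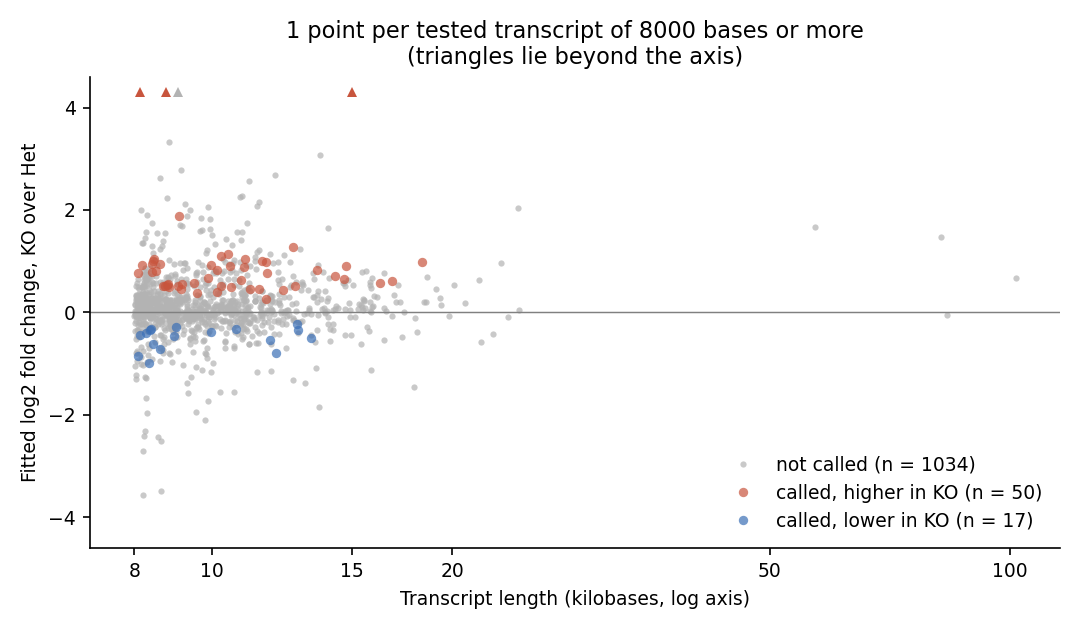
Fitted log2 fold change of KO over Het (vertical axis) against transcript length in kilobases (horizontal log axis), 1 point per tested transcript of 8000 bases or more. Red points are the 50 called higher in KO, blue the 17 called lower and grey those not called, with triangles for values beyond the axis. The cloud is centred slightly above 0, the longest transcript called lower has 13304 bases, and the longest called higher 18316.

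The largest rise to pass the test among long transcripts averaging log2 CPM 2 or more was that of uc009mix.2, of 9094 bases. Its counts were 36, 39, 46 and 32 in Het 1 to Het 4, and 170, 215, 151 and 179 in KO 1 to KO 4. These are whole numbers in every library, as they are where no read is divided between transcripts. Every KO library had over 3 times the count of any Het library. Log2 CPM rose from 1.66 ± 0.08 to 3.49 ± 0.06 (SD, n = 4), a fitted change of 1.88 (SE 0.11, edgeR adjusted p = 0.00164). Its level was low, at a mean of 0.368 TPM in Het and 1.36 TPM in KO.

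The transcript uc033fjf.1, of 12648 bases, held 261.6, 375.0, 258.6 and 198.5 estimated counts in Het and 622.5, 810.4, 1041 and 831.8 in KO. Its log2 fold change was 1.27 (SE 0.23, edgeR adjusted p = 0.0393). It shares its reads with 3 neighbours of nearly the same length, from 12571 to 12705 bases, and the 4 together held 1943, 2645, 2382 and 2188 reads in Het and 3885, 5286, 5073 and 4457 in KO. The group of 4 rose by less, at 0.67 (SE 0.13, edgeR adjusted p = 0.0198 when such groups were fitted as 1 row each). The call of the single transcript was lost with any library but Het 2 left out, at edgeR adjusted p from 0.0578 to 0.106.

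Among those that passed the test at this level, the largest fall was that of uc007cuv.2, of 8338 bases, from 313.6, 280.6, 394.8 and 365.6 estimated counts in Het to 245.2, 197.5, 221.4 and 193.8 in KO. All KO values were below all Het values. The log2 fold change was -0.99 (SE 0.20, edgeR adjusted p = 0.0474), and the call was lost whichever library was left out, at edgeR adjusted p from 0.0573 to 0.128. The transcript uc008jrb.2, of 8088 bases, held 205.4, 158.9, 229.8 and 172.6 estimated counts in Het and 107.6, 183.4, 123.8 and 132.9 in KO. KO 2, the deepest library, lay within the Het range in counts, but not in log2 CPM. The log2 fold change was -0.84 (SE 0.13, edgeR adjusted p = 0.0279), a call lost with any library but Het 2 left out (edgeR adjusted p from 0.0585 to 0.0824). Together with the 4 neighbours that share its reads its change was -0.36 on the log2 scale (SE 0.13, edgeR adjusted p = 0.124), which did not pass the threshold.

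**Figure D4:**
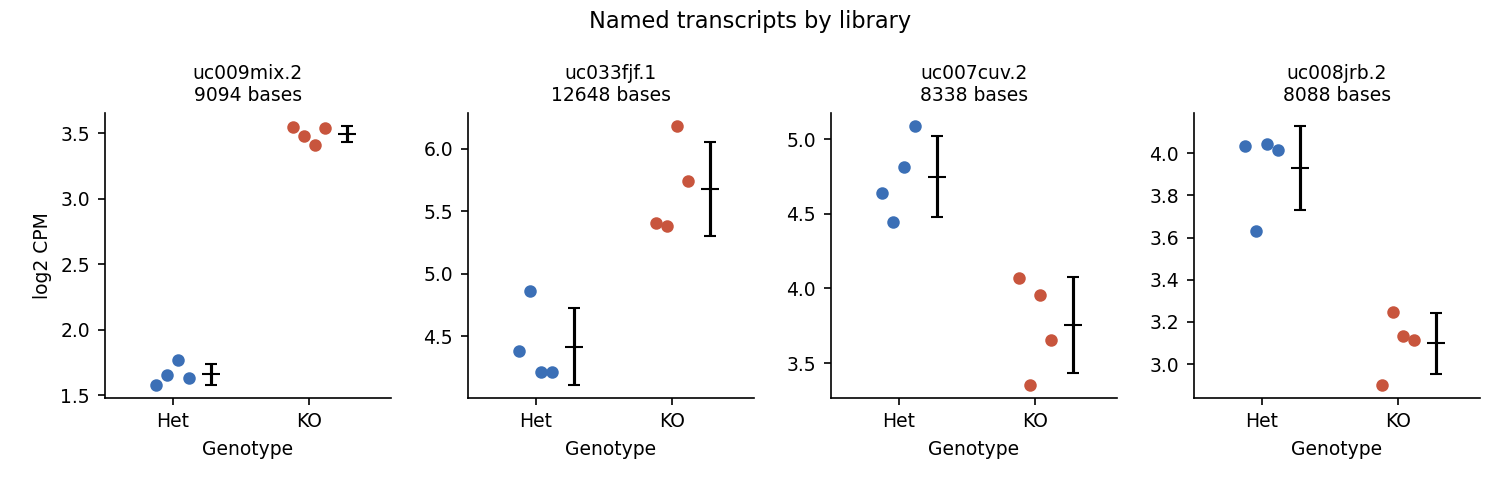
Log2 CPM of the 4 named transcripts in each library (vertical axes, not starting at 0), with Het in blue, KO in red, and mean and SD of 4 libraries in black. The genotypes do not overlap in any panel, and the tightest groups are those of uc009mix.2, with SD of 0.08 and 0.06.

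Of the next 4 rises, a transcript of 10260 bases also had whole counts, at 729, 761, 919 and 601 in Het and 2042, 2280, 1946 and 1814 in KO. Its log2 fold change was 1.09 (SE 0.09, edgeR adjusted p = 0.00414). A transcript of 10998 bases held 1277, 1441, 1432 and 1136 estimated counts in Het and 3226, 4204, 3349 and 2968 in KO. These counts are not adjusted for depth. In log2 CPM the lowest KO value was 7.57, in KO 4, and the highest Het value 6.80, in Het 2. Its log2 fold change was 1.03 (SE 0.07, edgeR adjusted p = 0.00287). The other two, of 10464 and 8455 bases, had log2 fold changes of 1.14 and 1.05. Of the next 4 falls, a transcript of 12037 bases held 2404, 2404, 3093 and 1845 estimated counts in Het and 1589, 1856, 1865 and 1669 in KO. Its log2 fold change was -0.80 (SE 0.11, edgeR adjusted p = 0.0216), and its only read-sharing neighbour, of 517 bases, had few reads, so that the pair fell by as much, at -0.82. A transcript of 8617 bases had a log2 fold change of -0.72, while the 6 transcripts it shares reads with, itself included, fell by 0.22. The last pair, of 8449 and 11840 bases, changed by -0.62 and -0.55.

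Of the 5 most abundant long transcripts 1 was called. The first, of 11852 bases, received 55513, 68313, 68444 and 53331 estimated counts in Het and 87843, 122204, 82614 and 84168 in KO, or means of 449 TPM and 546 TPM. Its groups did not overlap, but the log2 fold change of 0.26 (SE 0.07) missed the threshold (edgeR adjusted p = 0.0976). The second, of 8451 bases, had 358 TPM in Het and 361 TPM in KO. A transcript of 83437 bases came next in counts, with 34715, 34871, 33017 and 26845 in Het and 35583, 48220, 34178 and 41932 in KO. Because of its length this came to only 32.3 TPM and 32.4 TPM, and the estimated log2 change, -0.05 (SE 0.07, edgeR adjusted p = 0.813), was within the spread. The fourth, of 11473 bases, went from 177 to 247 TPM, a rise of 0.45 (SE 0.08, edgeR adjusted p = 0.0413). The fifth, of 12453 bases, had 133 TPM in Het and 140 TPM in KO.

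Among the 5 longest tested transcripts none was called. The longest, of 101674 bases, held 188.0, 144.0, 149.0 and 99.0 estimated counts in Het and 264.8, 301.5, 252.6 and 344.0 in KO. All KO values were above all Het values, and the estimated change was 0.68 (SE 0.18, edgeR adjusted p = 0.0913). A transcript of 81931 bases that shares reads with it was given 0 in 4 libraries and from 19.2 to 34.9 in the others. A transcript of 56978 bases had whole counts, namely 8, 4, 10 and 4 in Het, then 34, 16, 34 and 17 in KO. Its estimated change was 1.68 on the log2 scale (SE 0.50, edgeR adjusted p = 0.125). One of 24271 bases had 0.06 (SE 0.05), with overlapping groups. At the lower bound, the 3 tested transcripts just inside it, of 8000, 8001 and 8006 bases, had log2 fold changes of -0.07, -0.21 and -0.05, and the 3 just outside, of 7998, 7996 and 7995 bases, of 0.07, -0.37 and 1.59.

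In 3 long transcripts all Het libraries were given less than 1 count and all KO libraries at least 10, or 0.272% of those tested. All 3 were among those called higher in KO, with larger fitted changes than the named rises. Among all tested transcripts 18 were of this kind (0.0613%), and 3 of the opposite kind (0.0102%), none of them long. The long transcript of 15003 bases was given 121.2, 178.8, 72.0 and 119.7 counts in KO and only traces in Het. Against a floor of 3 counts per Het library it was at least 31.8-fold higher in KO. It lies in no closed run, so whether reads there were given to other transcripts in Het could not be checked. The other two, of 8131 and 8753 bases, held from 60.5 to 324.8 and from 21.7 to 77.8 counts in KO and under 0.1 in every Het library. Both share reads with neighbours. The 5 transcripts around the one of 8131 bases together held 1665, 1810, 1676 and 1096 reads in Het and 2371, 3773, 2263 and 2763 in KO. As a sum they rose by 0.47 on the log2 scale (SE 0.11, edgeR adjusted p = 0.0377). The 6 around the one of 8753 bases rose by 0.76 (SE 0.12, edgeR adjusted p = 0.0111). Reads were thus present in Het at both places, and were given to other transcripts there.

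The division of reads between overlapping transcripts was therefore followed through the class. An isoform estimate is a share of the reads that several transcripts could have produced, and such shares are rarely whole. Runs of neighbouring transcripts whose estimates add up to whole reads were taken to share reads only among themselves, and are called closed runs below; they are not genes. Of the 1101 tested long transcripts 393 lay in 265 closed runs, 45 of them alone and 348 with others, and 84 runs held at least 2 long transcripts. The remaining 708 lay in no closed run, so that nothing can be said of their summed reads. Closed runs held 37.6% of the counts on long transcripts.

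With each closed run fitted as 1 row beside all other transcripts, 37 runs that hold a tested long transcript passed the same edgeR threshold as higher and 19 as lower, or 21.1% of 265. In the same fit 9.57% of all 21736 rows and 13.4% of all 9302 closed runs were called. Among all closed runs 8.40% were higher and 5.03% lower, against 14.0% and 7.17% of those with a long transcript. The latter hold more reads, with a median of 1511 per library against 254.1 for the 6318 closed runs of 2000 to under 8000 bases. At the same mean count, 9.03% of those shorter runs were higher and 7.66% lower, a comparison added after seeing the data. Dropping Het 1, Het 2, Het 3 or Het 4 gave 29, 49, 25 or 29 called runs of 265. Dropping KO 1, KO 2, KO 3 or KO 4 gave 27, 22, 43 or 26, with more higher than lower each time. The share of all closed runs called in those fits is not given here. With all libraries, closed runs of any length were also more often higher than lower. In 33 of the 56 called runs no long transcript had been called by itself. Of the 26 long transcripts called singly that lie in closed runs, the runs of 24 were called in the same direction and those of the other two were not called. A run includes the reads of the transcript called, so its call is not independent of that transcript's call. Of the 45 long transcripts alone in their run, 4 had been called in the fit of all transcripts, all 4 higher. When transcripts with whole counts were fitted by themselves, 12 of these 45 were higher and 3 lower (26.7% and 6.67%). In that fit 21.8% of all 3448 transcripts were called, 11.2% higher and 10.6% lower, so the number called also depends on which transcripts are fitted together.

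Summed over closed runs, the length trend was smaller. The median log2 fold change was 0.04 for the 149 runs whose longest transcript has 8000 to under 10000 bases, 0.03 for the 71 of 10000 to under 12000 and 0.04 for the 47 of 12000 or more, runs whose only long transcript was not tested by itself included. It was 0.04 for the 4126 runs of 2000 to under 4000 bases and 0.04 for the 2192 of 4000 to under 8000, and 0.04 over all closed runs. The single long transcripts inside closed runs, not summed, had a median of 0.08, and those in no closed run 0.09. The slope on length, fitted over the 11682 transcripts of 2000 bases or more that lie in closed runs, differed between genotypes by 0.05 (exact permutation p = 0.0571, n = 4 per genotype). Fitted over the 6585 runs they form, with the longest transcript as length, it differed by 0.01 (exact permutation p = 0.657, n = 4 per genotype). The slopes of the runs were 1.29, 1.33, 1.32 and 1.31 in Het and 1.32, 1.32, 1.36 and 1.29 in KO, with the genotypes intermixed. Some other choices moved the slope difference, to 0.12 with mean log2 CPM as a second predictor and to 0.030 on log2(TPM + 1). The choices that follow left it near its first value. Over closed runs together with the transcripts in none it was 0.061. Over transcripts with whole estimates in every library, where no reads are divided, it was 0.062 (exact permutation p = 0.0571 for each, n = 4 per genotype).

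Long transcripts in runs of several were then set against their run. Of the 348 long transcripts in such runs 63.8% had a larger fold change than their run, with a median excess of 0.02 on the log2 scale. The 354 shorter tested transcripts of the same runs had a median of -0.07 relative to their run. The transcripts of a run divide the same reads, so this is not a separate result. For transcripts of 2000 to under 8000 bases in any run of several, the share above their run was 52.8% and the median excess 0.01. These are descriptions over transcripts that share reads, and the difference between them was not tested. The 45 long transcripts alone in their run, where no reads are divided, had a median log2 fold change of 0.16. They are few, and only 4 of them passed the test in the fit of all transcripts.

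**Figure D5:**
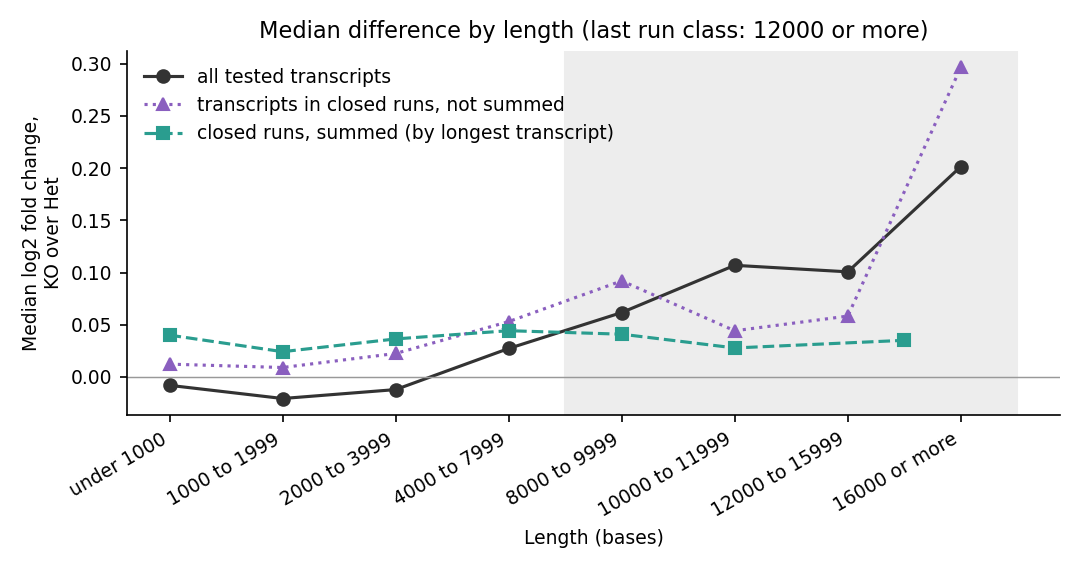
Median log2 fold change of KO over Het (vertical axis) by length class in bases (horizontal axis), for all tested transcripts (black circles), transcripts in closed runs taken singly (purple triangles) and closed runs with their reads summed (green squares, placed by their longest transcript, the last at 12000 bases or more). The grey band marks 8000 bases or more. The black line rises from 0.06 to 0.20 across the band, the green squares stay between 0.03 and 0.04, and the last purple point rests on 11 transcripts.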

How the data were processed

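Per the submitters' processing notes, the authors used cutadapt 1.16, kallisto and the mouse build mm10; further settings are not given in the sources used here. The deposited estimated counts are per transcript, with the same lengths in all 8 tables, and the deposited TPM values stand beside them, with an effective length per transcript in the file headers. Totals ran from 10707086 to 19561022 estimated counts. Differences were tested on rounded estimated counts in edgeR 4.0.16 under R 4.3.3 (default filter, TMM factors, robust quasi-likelihood test, Benjamini-Hochberg over all tested transcripts). Log2 CPM used a prior count of 2. Matching used bins of 0.5 in log2 mean count. A closed run has at most 40 neighbours, sums that are whole within 0.1 counts, and at least 6 libraries in which this could be judged. Named transcripts are the 2 largest called rises and the 2 largest falls whose log2 CPM averages 2 or more and whose groups do not overlap. The next 4 in each direction, the 5 most abundant, the 5 longest and the 3 on each side of the length bound are given by length; the transcripts present in 1 genotype alone were chosen after their values were seen. Alternatives used DESeq2 1.42.0, limma 3.58.1 and thinning. The fit, the search for runs, the slope and the class difference were tested on simulated data. The class and the tests were chosen with earlier results of these data known.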

Additional observations from a re-analysis of the deposited data

Results flagged for a closer look

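Each of 18 sets of values (4 libraries of a genotype) was searched for 1 library well apart from the rest. It was found in 2, where the critical value used marks about 1 set in 20 by chance. The share of all estimated counts on long transcripts was 10.5% in Het 1, while the other Het libraries were all at 11.9%. The log2 CPM of uc008jrb.2 was 3.63 in Het 2, the lowest Het value of that transcript and still above every KO library.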

How the results depend on the processing

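The number of long transcripts called was 67 of 1101, and it became 218 with DESeq2. It was 0 with limma on TPM, whether the pseudocount was 1 or 0.1. There 104 and 107 had an unadjusted limma p under 0.05 (9.45% and 9.72%, against 8.4% and 8.1% of all transcripts). Without a filter it was 40, or 3.23% against 0.863% of all transcripts. It was 15 when whole estimates were fitted alone (33.3% against 21.8% of all), an alternative chosen after seeing the data. With a length bound of 6000 bases 147 of 2983 tested were called, and with 10000 bases 33 of 447. Leaving out each library gave from 8 to 54. RLE factors gave 64 of 1101, upper-quartile factors 63 of 1101, and a mean CPM of at least 1 gave 67 of 1126. Transcripts of 2000 bases or more fitted alone gave 68 of 1101. For RLE factors and the fits after it, the share of all transcripts called is not given here. Summing closed runs was also chosen after seeing the data, and the 56 of 265 runs called became 22 to 49 when each library was left out. The difference from equally counted transcripts, 0.17, was 0.10 against the nearest transcript, 0.069 on log2(TPM + 1), 0.24 from 10000 bases, 0.16 with overlapping groups for whole estimates and 0.15 to 0.19 when each library was left out. The gap in detected transcripts was 23.75, with 37 at 5 or more counts, 43.5 at 10 or more and from 20.4 to 26.4 when each library was left out. The log2 ratio of shares ran from 0.04 to 0.11 when each library was left out. The slope difference of 0.07 ran from 0.059 to 0.083 when each library was left out. The exact permutation p was 0.0286 without Het 2 and from 0.0571 to 0.0857 without any other library. It was 0.12 with mean log2 CPM as a second predictor and 0.078 at a mean CPM of at least 1 (exact permutation p = 0.0286 for each). Over all tested lengths it was 0.049, and on log2(TPM + 1) it was 0.030 (exact permutation p = 0.143 for each). No alternative turned a direction.

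Same-numbered libraries of the genotypes correlated over long transcripts by 0.04, 0.12, 0.13 and -0.03, and in 4 of 8 the own number gave the best match. These values do not settle whether the numbers pair the libraries, and the main fits did not pair them. The edgeR fit with a replicate block called 0 of 1101 long transcripts, with 284 at p under 0.05 before adjustment, and 15 of 265 runs. The shares of all transcripts and of all runs in the blocked fits are not given here. The blocked slope difference was 0.07, with an exact sign-flip permutation p of 0.125, the smallest that 4 pairs allow. A single estimate of a transcript with shared reads is limited by how those reads were divided, and for the 708 long transcripts in no closed run this could not be checked.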
